A study of Mus musculus with 4 samples.

Results

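Multi-copy gene families known from the 2-cell embryo and from preimplantation stages were followed in mouse morulae after knockdown of Nr1h2. Olfactory receptor genes and 6 single genes were followed with them. Nr1h2 encodes the oxysterol receptor LXRβ. The members are the genes of the authors' comparison whose symbol begins with Zscan4, Usp17l, Tdpoz, Obox, Trim43, Pramef, Pramel, Oog, Duxbl, Tcstv or Olfr, or is Zfp352, Urml, Sp110, Spz1, BB287469 or AU015228. That symbol rule selected 42 of the 13658 genes in the authors' deposited table. It gave 4 Zscan4, 5 Usp17l, 2 Tdpoz, 5 Obox, 3 Trim43, 4 Pramef, 4 Pramel, 1 Oog and 8 Olfr genes and the 6 single genes. No Duxbl or Tcstv gene was analysed here. The list was drawn up with the fold changes of this same comparison known, so every fold change and call below describes the members and is no independent evidence of a direction.

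The tested embryos carried siRNA against Nr1h2 (siNr1h2, 2 samples) and the controls carried a non-targeting siRNA (siNT, 2 samples). All were wild-type mouse embryos injected at the 1-cell stage with 4 to 5 pL of siRNA at 100 µM, grown in M16 medium until they were morulae, and both reagents were pools of several siRNAs. The labels say nothing of the number of embryos per sample, the strain or the injection sessions, so the p-values cover the variation among these 4 samples only, which can be technical in part. Polyadenylated RNA was read as full-length cDNA without strand information. The file holds the authors' comparison and no value per sample, so the depth of each sample is unknown and the members' values are given as group levels. These were implied by the mean normalized count over the 4 samples and the fold change. In bulk embryos, fewer cells that express a gene and less RNA per cell cannot be told apart.

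In mouse embryos the major wave of genome activation takes place at the 2-cell stage. A set of multi-copy genes, among them Zscan4 and Usp17l genes, is transcribed in a short burst at that time and is largely silent by the morula. Other families, such as the Pramel and Trim43 genes and Obox6, remain abundant in later cleavage embryos. Most of these genes lie in clusters of recent duplicates, and a short read from one copy can match another.

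The siRNA target was checked first. From the authors' deposited table, Nr1h2 had an implied level of 141 normalized counts in siNr1h2 and 710 in siNT, or 19.9% of the control. Across all genes with an adjusted p, 184 of 12069 were lower and 55 higher at an adjusted p under 0.05 in the authors' deposited table. The share called was 1.98% in either direction, 1.52% for lower and 0.456% for higher genes. Centred on the median of genes with a mean of at least 500, the split was 142 lower and 82 higher genes. All 14 genes of the morula and blastocyst that were looked up were present, with summed implied levels of 17431 in siNr1h2 and 17567 in siNT. Of markers of other cells, none of 7 sperm genes had a row. Of 12 cumulus and granulosa genes, 4 had one, with a summed implied level of 108 in siNr1h2 and 91.7 in siNT. Most of that was Amhr2, at 82.8 in siNr1h2 and 47.5 in siNT. The other 3 were lower in siNr1h2, with Star at 22.2 in siNr1h2 and 37.1 in siNT, Cyp19a1 at 1.57 in siNr1h2 and 4.22 in siNT and Foxl2 at 0.986 in siNr1h2 and 2.90 in siNT. None of the 4 was called, and Has2, Ptgs2, Tnfaip6 and Cyp11a1 had no row. The part of such cells in the members' values was not tested. Hba-a1, at 23.1 in siNr1h2 and 26.2 in siNT, was the only one of 5 blood genes.

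Of the 42 members, 33 had an adjusted p in the authors' deposited table, which gives one only from a mean of 8 normalized counts upward. Among these 33, 12 were lower and 0 higher in siNr1h2 (the authors' adjusted p under 0.05), against the 1.52% and 0.456% of all genes given above. At an unadjusted p under 0.05, 18 of the 33 were lower and 1 was higher in the authors' deposited table, against 7.31% and 5.97% of all genes tested. The 12 were Zscan4a, Usp17lb, Obox6, Tdpoz2, Trim43c, Pramef25, Zfp352, Spz1, Urml, BB287469, AU015228 and Olfr376. Apart from the Pramel genes, each of the 7 families with 2 or more tested members had exactly 1 called member, as the plot of members by family shows. The median log2 fold change of the 33 was -0.96, against 0.00 over all genes tested, and 30 of them lay below 0. A member near a mean of 8 can enter the test through the group in which it is high, so these counts cover the members that passed the filter and not all 42.

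**Figure D1:**
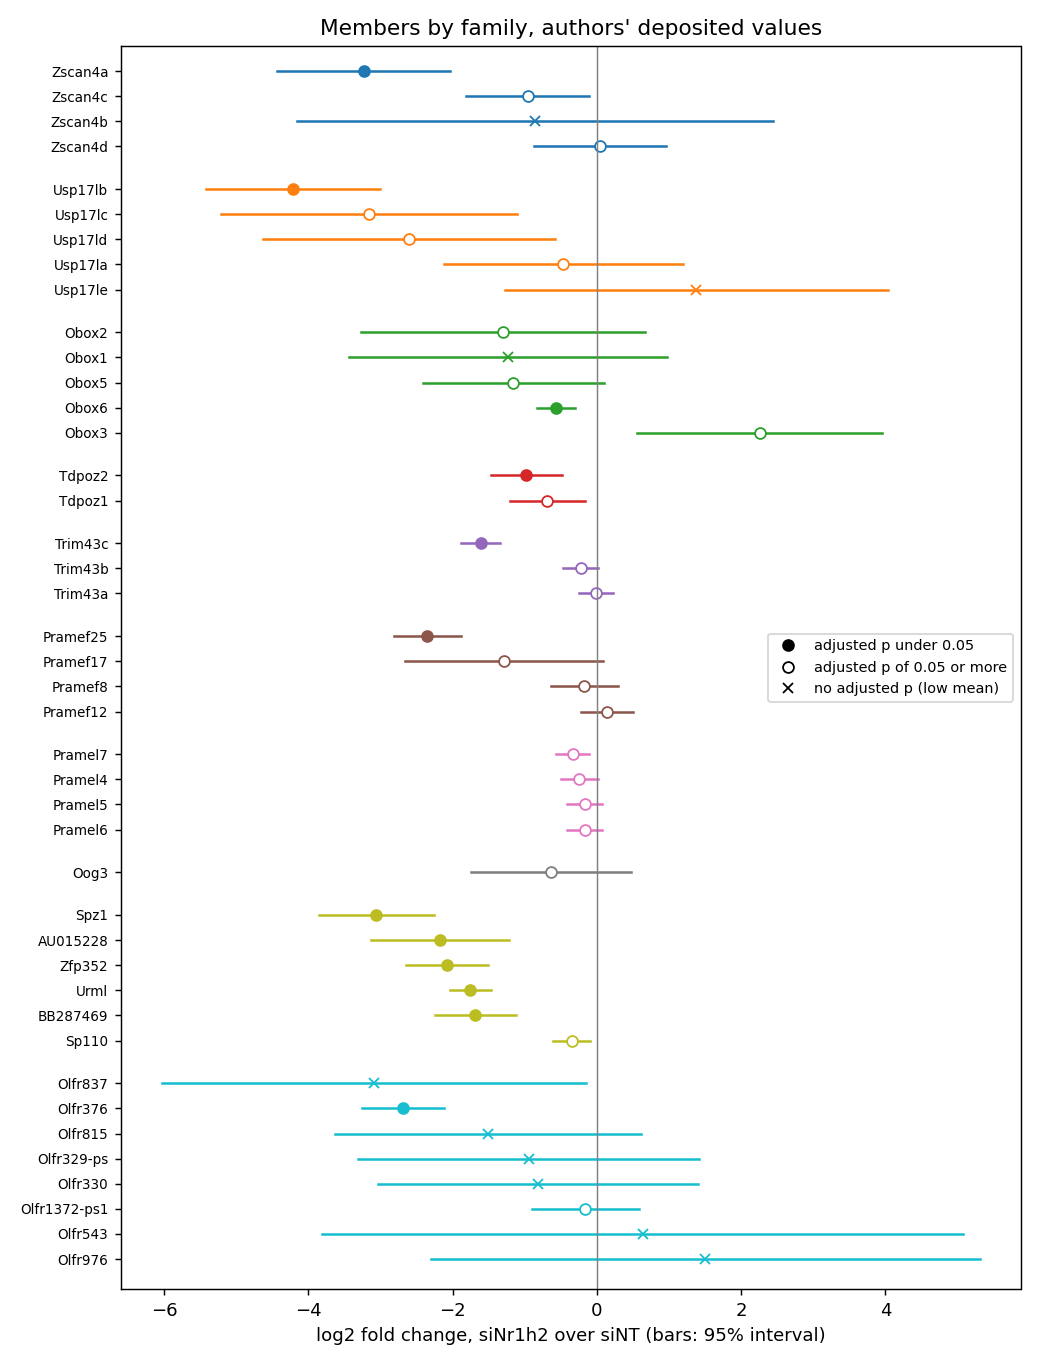
Each row is 1 member, grouped by family and coloured by it. Points are the log2 fold changes of the authors' deposited table (siNr1h2 over siNT) with 95% intervals, filled where the adjusted p was under 0.05 and crossed where none was given. Filled points appear for 12 members, all left of 0, and the 4 Pramel genes sit between -0.34 and -0.17.

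Zscan4 genes encode zinc finger proteins with a SCAN domain that take part in telomere maintenance and mark 2-cell-like stem cells. Zscan4a had an implied level of 6.04 normalized counts in siNr1h2 and 56.8 in siNT, a log2 fold change of -3.23 ± 0.61 (SE) in the authors' deposited table. Zscan4c stood at 28.4 in siNr1h2 and 55.3 in siNT (-0.96 ± 0.44, adjusted p = 0.299). Zscan4d was at 37.4 in siNr1h2 and 36.3 in siNT (0.04 ± 0.47). Zscan4a was thus the lowest of these 3 copies in siNr1h2, while in siNT its level was close to that of Zscan4c. Zscan4b had a mean of 2.58 and no adjusted p. Zscan4a is annotated as a pseudogene in RefSeq (GRCm38.p6), and 36.4% of the 50-base stretches of its transcript occurred in no other gene's transcripts, with 50.7% shared with Zscan4c. For Zscan4c that unique share was 14.5% and for Zscan4d 50.4%.

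The promoters of Zscan4c and Zscan4d are shown as the most alike pair of promoters among the members, with 93.7% of their bases identical in alignment. They are at chr7:11005495-11005794, plus strand, and chr7:11166099-11166398, minus strand (RefSeq, GRCm38.p6), and run from 250 bases before to 50 after the gene's start. Capitals mark AGGTCA, the core sequence bound by many nuclear receptors, here on the opposite strand as TGACCT.
Zscan4c: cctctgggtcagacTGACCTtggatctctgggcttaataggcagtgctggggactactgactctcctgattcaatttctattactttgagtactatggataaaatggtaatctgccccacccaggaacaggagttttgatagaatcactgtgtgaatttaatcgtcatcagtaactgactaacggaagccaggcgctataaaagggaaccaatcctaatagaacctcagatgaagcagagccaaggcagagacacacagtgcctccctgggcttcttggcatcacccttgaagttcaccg
Zscan4d: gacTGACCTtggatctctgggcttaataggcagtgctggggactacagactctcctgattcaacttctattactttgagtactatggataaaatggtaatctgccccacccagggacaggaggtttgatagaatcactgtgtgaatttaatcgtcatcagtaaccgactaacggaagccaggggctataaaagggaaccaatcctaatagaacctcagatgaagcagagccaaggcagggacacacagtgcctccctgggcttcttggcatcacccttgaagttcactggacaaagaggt

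Obox genes encode homeobox transcription factors of the oocyte and early embryo. Obox6, the most abundant of them, had implied levels of 5788 normalized counts in siNr1h2 and 8552 in siNT, or 1.48 times lower (95% interval 1.23 to 1.77) in the authors' deposited table. It carried 99.4% of the family's summed mean. The other 4 were rare. Obox3 had the largest fold difference of the family, higher in siNr1h2 and not past the threshold, at 19.1 in siNr1h2 and 3.99 in siNT (log2 fold change 2.26 ± 0.87, adjusted p = 0.177, authors' deposited table). Obox5 stood at 12.3 in siNr1h2 and 27.6 in siNT, and Obox2 at 4.84 in siNr1h2 and 11.9 in siNT, neither past the threshold. Obox1, at 3.41 in siNr1h2 and 8.01 in siNT, had no adjusted p. Obox6 was among the members with at least 90% unique 50-base stretches, against 34.9% for Obox2 and 42.6% for Obox1, which share most of the rest with each other.

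Zfp352, a zinc finger gene known from 2-cell embryos, had an implied level of 45.1 normalized counts in siNr1h2 and 191 in siNT in the authors' deposited table (4.22 times lower, 95% interval 2.84 to 6.28). Its transcripts were 92.9% unique. The promoter of Zfp352 (RefSeq GRCm38.p6, chr4:90218570-90218869, plus strand) is shown because it holds the homeobox site TAATCC, the kind of site that OBOX and OTX proteins bind, in 9 copies (capitals). They begin between bases 24 and 190 of the window and are spaced 20 to 21 bases apart. Among 32851 promoters of the same length it was the only one with as many, and the next highest count was 4.
Zfp352: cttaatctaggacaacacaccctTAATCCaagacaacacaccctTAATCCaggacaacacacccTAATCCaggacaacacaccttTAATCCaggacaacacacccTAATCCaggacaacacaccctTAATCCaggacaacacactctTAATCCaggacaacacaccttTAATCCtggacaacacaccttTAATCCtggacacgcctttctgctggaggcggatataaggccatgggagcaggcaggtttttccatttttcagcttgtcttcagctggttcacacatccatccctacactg
Spz1, a basic helix-loop-helix gene of the male germ line, was at 14.6 in siNr1h2 and 122 in siNT, the steepest change among the single genes (log2 fold change -3.06 ± 0.40, authors' deposited table). All of its 50-base stretches were unique to it.

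Usp17l genes encode deubiquitinating enzymes. Usp17lb had an implied level of 4.38 normalized counts in siNr1h2 and 81.2 in siNT, the lowest log2 fold change of any gene in the authors' deposited table (-4.21 ± 0.61, or 18.5 times lower, 95% interval 8.08 to 42.6). Usp17lc was at 1.96 normalized counts in siNr1h2 and 17.5 in siNT (-3.16 ± 1.05, adjusted p = 0.0871) and Usp17ld at 2.62 in siNr1h2 and 15.9 in siNT (-2.60 ± 1.03, adjusted p = 0.204). Usp17la stood at 10.0 in siNr1h2 and 13.8 in siNT (-0.46 ± 0.85). Usp17le, with a mean of 4.68 and no adjusted p, was at 6.76 in siNr1h2 and 2.60 in siNT. In siNr1h2 all 5 copies were at 10.0 normalized counts or less. Usp17lc and Usp17ld shared 41.5% and 50.4% of their 50-base stretches with each other, while Usp17lb was 78.6% unique.

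The promoters of Usp17lb and of its neighbour Usp17la are shown because the point estimates of these adjacent copies lay far apart, though the difference was not tested, while 83.0% of the bases aligned as identical. They are at chr7:104842534-104842833, minus strand, and chr7:104856766-104857065, plus strand (RefSeq, GRCm38.p6). Neither window holds any of the 4 motifs searched, so neither has capitals.
Usp17lb: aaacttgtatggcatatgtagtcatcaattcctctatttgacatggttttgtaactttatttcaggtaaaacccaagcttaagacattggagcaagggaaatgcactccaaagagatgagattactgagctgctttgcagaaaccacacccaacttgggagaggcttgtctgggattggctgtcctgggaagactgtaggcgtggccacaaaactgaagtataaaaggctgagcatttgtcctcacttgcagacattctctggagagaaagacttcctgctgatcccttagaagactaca
Usp17la: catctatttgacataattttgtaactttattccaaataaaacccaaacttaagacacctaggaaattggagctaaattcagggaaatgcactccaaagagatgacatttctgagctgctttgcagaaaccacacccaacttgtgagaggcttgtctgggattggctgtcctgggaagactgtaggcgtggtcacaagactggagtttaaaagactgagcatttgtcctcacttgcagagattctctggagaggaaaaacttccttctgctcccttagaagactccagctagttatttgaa

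Trim43 genes encode RING-type tripartite motif proteins. Trim43c had an implied level of 596 normalized counts in siNr1h2 and 1823 in siNT (log2 fold change -1.61 ± 0.14, authors' deposited table). Trim43b was at 7501 in siNr1h2 and 8777 in siNT (-0.23 ± 0.12). Trim43a was at 19838 in siNr1h2 and 20016 in siNT (-0.01 ± 0.12), a value that turns to 0.025 when the values are centred on genes with a mean of at least 500. The 95% interval of Trim43c ended at -1.35, below those of Trim43a and Trim43b. Of the exon bases of Trim43c, 38.6% overlap the gene model 9330159M07Rik, whose log2 fold change was -0.68 ± 0.65 at a mean of 17.8 in the authors' deposited table. Reads of overlapping genes cannot be told apart here. Between 41.4% and 54.1% of the 50-base stretches of the 3 Trim43 genes were unique, and 69.5% to 86.6% of their 100-base stretches.

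Tdpoz genes encode proteins with TRAF and POZ domains. Tdpoz2 was at 93.8 in siNr1h2 and 185 in siNT (log2 fold change -0.98 ± 0.25) and its neighbour Tdpoz1 at 110 in siNr1h2 and 177 in siNT (-0.69 ± 0.26, adjusted p = 0.176) in the authors' deposited table. Only Tdpoz2 passed, and their intervals overlap. About as much of each transcript was unique, 51.7% for Tdpoz2 and 55.6% for Tdpoz1.

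PRAME family genes (Pramef, Pramel and Oog) encode leucine-rich repeat proteins. Pramef25 was at 76.8 in siNr1h2 and 392 in siNT (log2 fold change -2.35 ± 0.23, or 5.10 times lower, 95% interval 3.71 to 7.02, authors' deposited table). Its relatives did not pass. Pramef12, the most abundant Pramef gene, was at 370 in siNr1h2 and 337 in siNT (0.14 ± 0.18), and Pramef8 at 144 in siNr1h2 and 163 in siNT (-0.17 ± 0.24). Both had wholly unique 50-base stretches, whereas Pramef25 was 36.5% unique. Pramef17 stood at 10.4 in siNr1h2 and 25.3 in siNT (-1.29 ± 0.70).

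Among the Pramel genes, Pramel7, which acts in ground-state pluripotency, was at 8944 in siNr1h2 and 11307 in siNT (log2 fold change -0.34 ± 0.11, adjusted p = 0.0957, authors' deposited table). Pramel4 was at 7591 in siNr1h2 and 8994 in siNT (-0.24 ± 0.13). Pramel5 and Pramel6 had nearly equal changes, -0.17 ± 0.12 each in the authors' deposited table. Pramel6, the most abundant of the 4, was at 11873 in siNr1h2 and 13357 in siNT. Oog3, an oogenesin, was at 18.3 in siNr1h2 and 28.5 in siNT (-0.64 ± 0.57). Pramel6 and Pramel7 lie next to each other on chromosome 2 and were 100.0% and 98.6% unique, while Pramel4, on chromosome 4, was 12.6% unique.

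Of the other single genes, Urml, a long non-coding RNA in RefSeq, was at 693 in siNr1h2 and 2342 in siNT (3.38 times lower, 95% interval 2.77 to 4.12, authors' deposited table). BB287469 was at 59.5 in siNr1h2 and 192 in siNT (log2 fold change -1.69 ± 0.29). AU015228 was at 13.7 in siNr1h2 and 62.0 in siNT (-2.17 ± 0.49). These 3 passed the authors' threshold. Sp110, which encodes an interferon-inducible nuclear body protein, did not, at 1410 in siNr1h2 and 1799 in siNT (-0.35 ± 0.13, adjusted p = 0.150, authors' deposited table). BB287469 has the least sequence of its own among the 41 members measured, which leave out Urml, at 3.39% of its 50-base stretches, with 94.3% found also in Gm4027. AU015228 is a processed pseudogene in GENCODE M21 and shares 11.2% of its stretches with Gtf2e1.

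The promoters of Urml and BB287469 are shown because called rows outside the members are the nearest to these genes, on one side of Urml and on both sides of BB287469. The Urml window (chr13:68234682-68234981, minus strand, RefSeq GRCm38.p6) holds 1 AGGTCA on the opposite strand, and that of BB287469 (chr12:87816327-87816626, plus strand) holds 2 homeobox sites TAATCC on the opposite strand, in capitals.
Urml: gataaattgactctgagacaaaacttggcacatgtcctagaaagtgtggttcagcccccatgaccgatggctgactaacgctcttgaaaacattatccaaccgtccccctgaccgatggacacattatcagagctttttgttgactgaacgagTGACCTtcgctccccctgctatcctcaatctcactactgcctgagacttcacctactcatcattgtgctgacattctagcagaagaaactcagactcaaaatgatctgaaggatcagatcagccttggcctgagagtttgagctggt
BB287469: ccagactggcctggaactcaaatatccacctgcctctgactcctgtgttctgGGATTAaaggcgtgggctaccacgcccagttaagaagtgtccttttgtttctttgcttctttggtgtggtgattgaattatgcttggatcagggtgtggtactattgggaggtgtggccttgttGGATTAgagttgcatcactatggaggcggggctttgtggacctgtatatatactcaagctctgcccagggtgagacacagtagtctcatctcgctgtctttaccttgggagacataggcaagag

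Among the olfactory receptor genes, which encode odorant receptors of the nose, Olfr376 was at 35.5 in siNr1h2 and 229 in siNT (log2 fold change -2.69 ± 0.29, or 6.45 times lower, 95% interval 4.33 to 9.60, authors' deposited table). The pseudogene Olfr1372-ps1 was the only other one with an adjusted p and stood at 52.1 in siNr1h2 and 58.4 in siNT (-0.16 ± 0.38). The other 6 had means of 1.31 to 7.45 and no adjusted p. The lowest log2 fold change among them was -3.09 for Olfr837 and those of Olfr976 and Olfr543 were above 0 in the authors' deposited table, all with standard errors of at least 1.08. RefSeq lists 1428 genes whose symbol starts with Olfr, so the 8 analysed are a small part of that family.

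**Figure D2:**
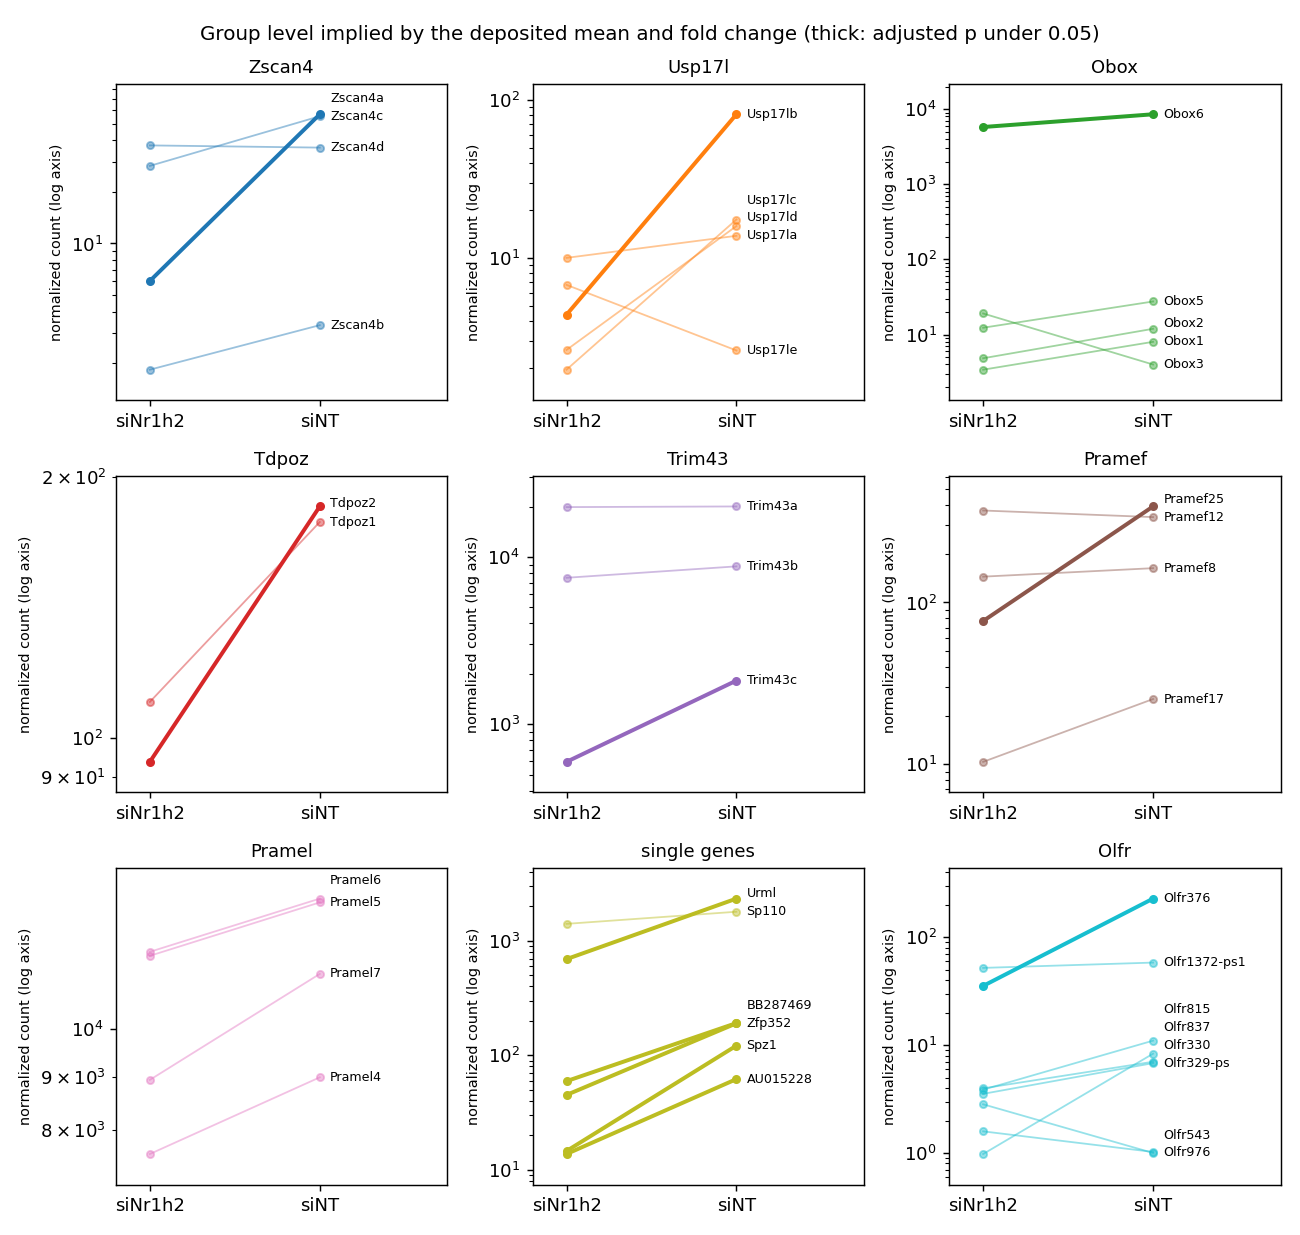
Each panel is 1 family or the single genes, with the implied normalized count on a log axis, siNr1h2 left and siNT right. Lines are members, thick where the authors' adjusted p was under 0.05. In the Zscan4, Trim43 and Pramef panels 1 thick line is steeper than those of the other copies. An example is Trim43c (596 in siNr1h2, 1823 in siNT) beside Trim43a (19838 in siNr1h2, 20016 in siNT). In the Obox panel the thick line, Obox6, is the flattest, and in the Usp17l and Olfr panels some thin lines are also steep.

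Sorted by mean normalized count, the called members were spread over all tested classes. Of 13 members with a mean of 8 to 50, 3 were lower, with a median log2 fold change of -1.29 against 0.07 for all genes of that class, of which 0.791% were lower. Of 10 members with means of 50 to 1000, 6 were lower, with a median of -1.33 against 0.02 for all such genes and 1.47% of them lower. Another 10 members had means above 1000. Of these 3 were lower (Urml, Trim43c and Obox6), with a median of -0.29 against -0.05 and 2.64% lower among all such genes. All 10 lay below 0, the nearest being Trim43a. Since the members were chosen with these values known, nothing is read from the difference to the background. The 9 members under a mean of 8 had standard errors of 1.08 to 2.27 on the log2 scale.

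**Figure D3:**
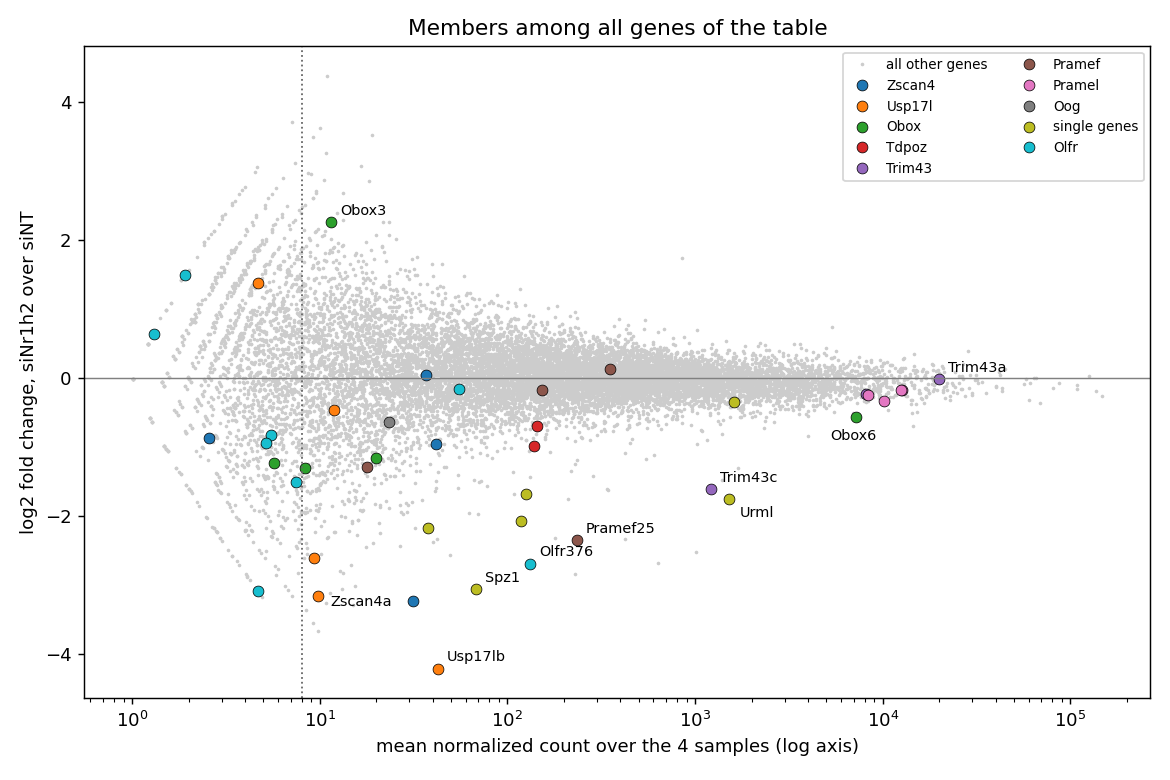
Each point is a gene, with its mean normalized count over the 4 samples (log axis) and its log2 fold change, siNr1h2 over siNT. Members are coloured by family over all other genes in grey, and the dotted line marks the mean of 8 below which no adjusted p was given. Usp17lb, at -4.21, lies lowest of all genes, and the abundant members at the right lie between -0.56 and -0.01, apart from Trim43c and Urml.

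Per kilobase of the longest GENCODE M21 transcript, the order of the abundant members by mean level over both groups was Trim43a (10059 normalized counts per kilobase), Pramel6 (7083), Pramel5 (5825), Pramel7 (5441), Obox6 (5335), Trim43b (3598) and Pramel4 (3457). Sp110 and Trim43c followed at 621 and 608, and Urml, with no transcript length by that name, could not be placed. The Zscan4 genes lay between 1.45 and 18.4 and the Usp17l genes between 2.48 and 27.5 on the same scale. No spread over samples is known for these levels.

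Because copies can share reads, the levels of each family were also summed. A read assigned to the wrong one of the listed copies stays within the sum, but one exchanged with an unlisted gene does not. Zscan4c shared 71.4% of its 50-base stretches with Zscan4-ps2, Tdpoz1 43.9% with Gm9117 and Pramef25 34.1% with Gm13040, none of them summed. Each Usp17l and Trim43 gene shared most with a copy in its own sum. The part of reads from unlisted genes in the sums was not tested. Usp17l genes together had 25.7 normalized counts in siNr1h2 and 131 in siNT, 5.09 times lower. Zscan4 genes had 73.6 in siNr1h2 and 152 in siNT, 2.06 times lower, a smaller fold than that of Zscan4a alone. For Tdpoz genes the sums were 204 in siNr1h2 and 362 in siNT, 1.78 times lower. Pramef genes summed to 601 in siNr1h2 and 917 in siNT, 1.52 times lower. Without Pramef25 the other 3 summed to 525 in each group. The Obox sum, 5828 in siNr1h2 and 8603 in siNT, followed Obox6.

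The most abundant families had the smallest differences. Pramel genes summed to 40177 normalized counts in siNr1h2 and 46904 in siNT, a log2 difference of -0.22 with an SE of 0.06 for independent errors and 0.12 for fully shared errors. Trim43 genes summed to 27935 in siNr1h2 and 30615 in siNT (-0.13, SE 0.09 to 0.12). Olfr genes, with 104 in siNr1h2 and 322 in siNT, gave -1.63 (SE 0.19 to 0.41), of which Olfr376 carried most. Without Olfr376 the log2 difference of the Olfr sum was -0.44, and without Usp17lb that of the Usp17l sum was -1.22. Without Zscan4a the Zscan4 genes summed to 67.6 in siNr1h2 and 94.9 in siNT (-0.49, SE 0.30 to 0.47).

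**Figure D4:**
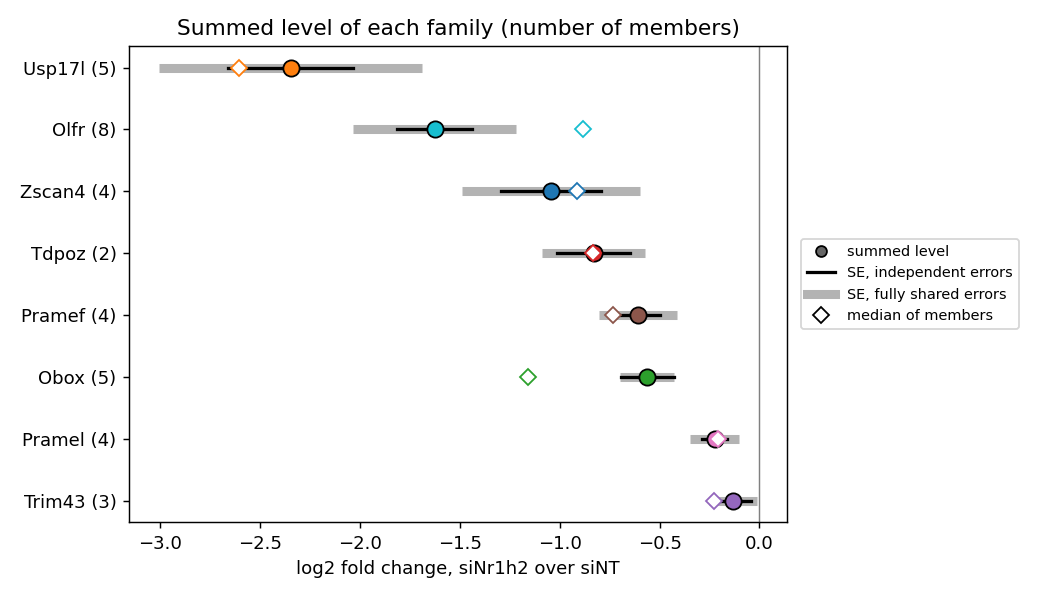
Circles are log2 differences (siNr1h2 over siNT) of the summed implied level of each family with 2 or more members. Thin bars are the SE if members err independently, grey bars the SE if their errors are fully shared, and diamonds the median of the members. The sums run from -2.35 for Usp17l to -0.13 for Trim43.

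How much of each gene's sequence is its own was measured for 41 members with GENCODE M21 transcripts, all but Urml. The median share of unique 50-base stretches was 74.1%, at 78.6% for 11 called members and 72.1% for 30 others. Of 12 members that were at least 90% unique, 4 were called (Spz1, Zfp352, Olfr376 and Obox6), with the smallest change in Obox6. The other 8 did not pass or had no adjusted p, and the median log2 fold change of the 12 was -0.26. Of 11 members under 50%, 4 were called (BB287469, Zscan4a, Pramef25 and Trim43c), while Obox1 and Zscan4b had no adjusted p. All 11 lay below 0, from -3.23 for Zscan4a to -0.24 for Pramel4, with Obox2 at -1.30 in the middle. Over all genes tested, 1.52% were lower, and since the members were chosen with these values known, nothing is read from that difference. Members with large decreases were found among both the most and the least unique sequences, and the relation of fold change to unique share was not tested. The authors' treatment of reads that match several copies is not given in the sources used here, and its part in the values was not tested.

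**Figure D5:**
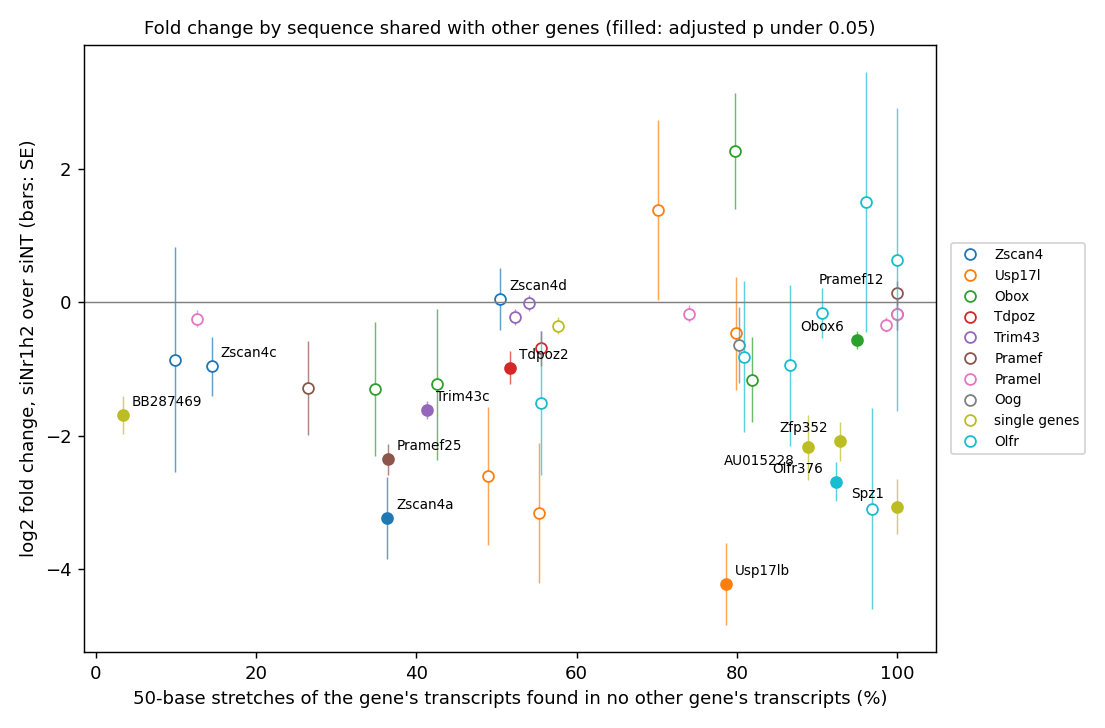
The x axis is the percentage of 50-base stretches of a gene's transcripts that occur in no other gene's transcripts (GENCODE M21), the y axis the log2 fold change with its SE (authors' deposited table, siNr1h2 over siNT). Filled points, with an adjusted p under 0.05, range from 3.39% (BB287469) to 100.0% (Spz1).

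By position, 15 members lie on chromosome 7 (Zscan4, Obox and Usp17l genes and Olfr543), 8 on chromosome 4, 5 on chromosome 9 and 4 on chromosome 11, with the other 10 on chromosomes 1, 2, 3, 10, 12 and 13 (RefSeq, GRCm38.p6). The nearest genes of the table that are no members numbered 50, and 42 of them had an adjusted p. Among those, 4 were lower and 0 higher in the authors' deposited table, against 1.52% and 0.456% of all genes tested. Their median log2 fold change was -0.10. They are no plain background of neighbours. Some are family genes under older names, such as Gm13119 and C87977, and the called Gm8016 and Gm8300 are on the list of other 2-cell genes below. Gm8016, next to Urml on chromosome 13, had a log2 fold change of -2.68 ± 0.20, while Zfp273, the nearest row on the other side, had 0.29 ± 0.34 and no call in the authors' deposited table. Gm8300 and Gm1995, the nearest rows on either side of BB287469 on chromosome 12 with 12 and 2 RefSeq genes in between, had -0.87 ± 0.22 and -1.76 ± 0.50. Sp140, a nuclear body protein gene next to Sp110, had -0.83 ± 0.19 (authors' deposited table).

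The nearest rows to other called members had no call, with values on both sides of 0. Zfyve16 and Serinc5, beside Spz1, had log2 fold changes of -0.56 ± 0.25 and -0.07 ± 0.49, and Cdkn2b and Elavl2, the nearest rows to Zfp352, 0.57 ± 0.50 and 0.42 ± 0.36 in the authors' deposited table. Obox5, beside Obox6, had -1.16 ± 0.64, a larger fold than the -0.56 ± 0.13 of Obox6 with a wider error, and Pramef17, the nearest row on one side of Pramef25, had -1.29 ± 0.70 in the authors' deposited table. Usp17la, beside Usp17lb, had -0.46 ± 0.85. Spata22, near Olfr376, and Zscan4b, near Zscan4a, stood at -0.97 ± 1.37 and -0.86 ± 1.68 in the authors' deposited table, at means too low for an adjusted p. Differences between neighbours were not tested.

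Promoter windows were given for 32 of the 42 members. None was given for AU015228, Obox6, Olfr1372-ps1, Olfr376, Pramef8, Tdpoz2, Trim43b, Trim43c, Usp17le and Zscan4a. On either strand, AGGTCA was in 6 of the 32 genes' windows (18.8%), against 16.3% of 32851 promoter windows of the same length. They were those of Zscan4b, Zscan4c, Zscan4d, Obox1, Obox2 and Urml. TAATCC was in 8 of the 32 (25.0%), against 7.06% of all windows. They were those of Zfp352, BB287469, Pramel4, Pramel5, Trim43a, Tdpoz1, Obox3 and Sp110, of which only Zfp352 and BB287469 were called. Of these 8, Pramel4 and Pramel5 are close copies, with 89.0% of bases identical in alignment. In both, and in BB287469 and Sp110, a site has the same neighbouring bases, and the Zfp352 copies form a regular repeat. The 8 are thus not independent, and nothing is read from the difference to all windows. The NR5A site TCAAGGTCA, which contains AGGTCA, and the DUX site were in none of the 32, against 0.423% and 0.0335% of all windows. Aligned promoters of members from different families had a median identity of 52.7%, which is the level to set beside the 81.7% to 93.7% of closer pairs such as Usp17la with Usp17lc and Zscan4c with Zscan4d.

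Of 26 genes listed as regulators of the 2-cell programme, 24 were in the authors' deposited table. Among them 1 was lower and 0 higher, against 1.52% and 0.456% of all genes, with a median log2 fold change of -0.12. Values below 0 numbered 16 and those above 0 numbered 8. The list was not split into activators and repressors, so its median gives no direction for the programme. The lower gene was Klf17, a Krüppel-like factor of the early embryo, at 269 in siNr1h2 and 457 in siNT. Dppa2, an activator of the 2-cell programme in mouse stem cells, was at 13138 in siNr1h2 and 17030 in siNT (-0.37 ± 0.13, adjusted p = 0.106, authors' deposited table). Ncl and Dppa3 stood at -0.28 ± 0.12 and -0.26 ± 0.11, and neither passed. Dux was not analysed here.

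Of 31 other genes known from 2-cell embryos or 2-cell-like cells, 26 were in the authors' deposited table, 4 of them without an adjusted p. Among the 22 tested, 6 were lower and 0 higher, against 1.52% and 0.456% of all genes tested. The other 16 were not past the threshold, and the median of the 22 was -0.34. Like the members, the gene lists were chosen with earlier results of these data known. Their counts are thus no independent evidence of a direction. Gm2016 was at 299 in siNr1h2 and 1721 in siNT, Gm8016 at 171 in siNr1h2 and 1093 in siNT, and Gm5662 at 737 in siNr1h2 and 2061 in siNT (authors' deposited table). B020004J07Rik was at 95.8 in siNr1h2 and 323 in siNT. Mbd3l2 and Gm8300 were the other lower genes, at 136 and 146 in siNr1h2 and 321 and 268 in siNT. Gm2016 and Gm5662 share 75.2% of the 50-base stretches of Gm2016, so their separate values are uncertain. Of 14 genes of the morula and blastocyst, 1 was lower and 0 higher in the authors' deposited table, against the same 1.52% and 0.456%, with a median of 0.06. That gene was the keratin gene Krt8, at 1092 in siNr1h2 and 1550 in siNT, while Pou5f1 stood at 0.43 ± 0.15 and Krt18 at -0.27 ± 0.13 without passing. Gata6, at 0.20 ± 0.12, did not pass either.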

How the data were processed

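The 4 samples were morulae, 2 per group. The build mm9 and the tools Cufflinks 2.2.1, DESeq2, edgeR, HTSeq 0.12.4, RSEM and STAR are named per the submitters' processing notes, without roles or parameters. The 1 file is the authors' comparison. Per the file headers it holds, for each gene, the mean normalized count (a signal value), the log2 fold change, its standard error and Wald statistic (a score each), and the p-value and adjusted p-value deposited by the authors. Its name gives the direction, siNr1h2 over siNT, and the fold change of Nr1h2 has that sign. Recomputing the Wald statistic, and Benjamini-Hochberg values over 12069 genes, gave the deposited ones. The other 1589 genes had means under 8. No test was run again, per-sample columns left unused numbered 0, and the depth per sample is unknown.

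Members and lists were chosen with earlier results of these data known. Group levels were implied from the mean m over 2 samples a group and the fold f, as 2m/(1+f) in siNT and f times that in siNr1h2, which holds to the extent that the fold is the ratio of group means. Intervals of 95% use the normal distribution. The SE of a family sum was computed for independent and for fully shared errors of its members. Unique 50-base and 100-base stretches were counted on both strands over GENCODE M21 transcripts, promoters and gene names came from RefSeq (GRCm38.p6, by symbol or synonym), and these builds are not mm9, so the files' genes were matched by name only. Genes named are the called members, the most abundant and the most changed member with a mean of at least 8 of each family, and up to 4 genes per list, with further members and neighbours named after their values were seen. Calculations used Python 3.11.15, pandas 2.3.3 and scipy 1.17.1 and were tested on simulated data. Alternatives covered thresholds, adjustment, scaling, low-mean filters and the members summed.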

Additional observations from a re-analysis of the deposited data

How the results depend on the processing

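The 12 lower and 0 higher members became 11 and 0 at an adjusted p under 0.01, 14 and 0 at 0.1, 9 and 0 after Holm adjustment, 12 and 0 when every row was adjusted, 9 and 0 among genes with a mean of at least 50, 10 and 0 with a change of at least 2-fold, 12 and 0 centred on genes with a mean of at least 500 and 15 and 0 centred on 86 ribosomal protein genes, whose median was 0.11. Without members whose 50-base stretches were mostly shared, an alternative added with the data in view, 8 and 0 were left. With a t distribution with 2 degrees of freedom no member and no gene passed (0 lower, 0 higher, smallest adjusted p = 0.948), while 68 of all genes, 10 of them members, stayed under 0.05 before adjustment. With 2 degrees of freedom, passing after adjustment over 12069 genes takes larger statistics than any here. The 12 calls thus depend on the normal distribution behind the authors' p-values. Over all genes, the 184 lower and 55 higher became 92 and 17 at 0.01, 48 and 1 after Holm adjustment, 66 and 24 at 2-fold and 441 and 36 centred on ribosomal protein genes, and 125 were higher at 0.1. Only the sign of 2 members turned, Trim43a to 0.025 when centred on genes with a mean of at least 500 and Zscan4d to -0.063 when centred on ribosomal protein genes. Family sums moved by more than the SE for independent errors as follows, in some cases by less than the SE for fully shared errors. Without the most abundant member, log2 differences were -1.22 for Usp17l, -0.38 for Obox, -0.39 for Trim43, -1.33 for Pramef and -0.44 for Olfr. The median of the members gave -1.16 for Obox, -0.23 for Trim43, -0.73 for Pramef and -0.88 for Olfr. Centred on ribosomal protein genes, Trim43 gave -0.24 and Pramel -0.33. Adding the family rows under other names, also added with the data in view, moved the sums by less than the SE for independent errors. It gave -0.87 for Tdpoz and -0.23 for Pramel together with Pramef. Without the called member, likewise added, sums again moved by more than that SE. They gave -0.49 for Zscan4, -1.22 for Usp17l, -0.38 for Obox, -0.00084 for Pramef and -0.44 for Olfr. Leaving out replicates and a second normalization were not run, because the file holds no values per sample. No paired analysis was possible because no values per sample were at hand.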

Other observations

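The authors' deposited table holds 14 further rows that belong to these families under their current RefSeq symbols but are listed under older names, which the symbol rule does not match. They were found by name, without regard to their values, but the families themselves were chosen with this comparison known. The counts below therefore describe these rows and are no independent evidence of a direction. B020004J07Rik and D5Ertd577e were also on the list of other 2-cell genes above. Of the 14, 12 are PRAME family genes and 2 are Tdpoz genes. With an adjusted p there were 11, of which 1 was lower and 0 higher, against 1.52% and 0.456% of all genes tested, and 10 lay below 0. Their median was -1.15 on the log2 scale of the authors' deposited table. At an unadjusted p under 0.05 there were 5 lower and 0 higher, against 7.31% and 5.97% of all genes tested.

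The lower gene was B020004J07Rik, now Pramel17, at 95.8 normalized counts in siNr1h2 and 323 in siNT (log2 fold change -1.75 ± 0.22, authors' deposited table). Gm13119, now Pramel31, stood at 40.3 in siNr1h2 and 89.4 in siNT (-1.15 ± 0.35, adjusted p = 0.0545). The most abundant of the 14, Gm3139 (now Pramel42), was at 3265 in siNr1h2 and 3770 in siNT (-0.21 ± 0.15), and D5Ertd577e (now Pramel48) at 1154 in siNr1h2 and 1171 in siNT (-0.02 ± 0.14), neither past the threshold in the authors' deposited table. Gm4858 and Gm9125, now Tdpoz8 and Tdpoz9, stood at 7.28 and 3.40 in siNr1h2 and 16.8 and 13.2 in siNT, neither past the threshold. With both kinds of name, 18 PRAME family rows had an adjusted p, 2 of them lower (Pramef25 and B020004J07Rik) and 0 higher.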
